A study of Homo sapiens with 32 samples.

Results

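The YY1 list held the summits of peaks called from chromatin precipitated with an antibody against YY1. A summit is the base of highest signal in a peak, and a broad peak can hold several. All lines on chromosomes 1 to 22 and X were taken, which gave 106578 YY1 summits of the 288104 summits in the 4 lists of the study. The other lists were those of SP1 (126181), NRF1 (39180) and ZNF143 (16165). The cells were HEK293T, an established human embryonic kidney line, in 1 clone whose ZNF143 carries a dTAG degron, a domain through which the molecule dTAGV-1 sends the fused protein to the proteasome. All groups carried this tag. The YY1 antibody was used on 4 untreated samples and on 4 samples given 50 nM dTAGV-1 for 30 minutes. For SP1 and for NRF1 there were likewise 4 untreated and 4 treated samples each. For ZNF143, the protein that carries the degron, there were 2 untreated and 2 treated samples. The YY1 list gives no value per sample, so no difference between treated and untreated cells could be measured. All counts below are over positions, which are not biological replicates.

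YY1 is a C2H2 zinc finger protein that activates or represses genes depending on the site. Its consensus is built around the letters ATGG, and it is known at promoters just inside the transcribed region, where those letters can coincide with the start of a reading frame. It is related to the Drosophila Polycomb protein Pho, works with the INO80 remodelling complex, and has been described at promoter and enhancer loops.

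The consensus was searched as AANATGGCG on both strands with no mismatch, and so always contains the shorter ATGGCG. The first set of sequences is shown because these are the copies within 50 bp of the summit at 7 of the 25 protein-coding genes with the highest YY1 scores. Each is 30 bases of hg38, read 5′ to 3′ on the strand of the copy, with the consensus in capitals.
FBXL19: gactacgaaaAAGATGGCGacctcgcccct
TPGS1: cgcacagtggAATATGGCGgtgcttccggt
CPEB4: gcccacacaaAAGATGGCGacctgctgcgc
C2CD2L: gcccatattaAAAATGGCGgccgccgcctt
TMED10: gccagtctccAAAATGGCGcggacggcatc
ZNF764: gccctcataaAAAATGGCGgcggcgcgggt
USP31: tcccacagtgAACATGGCGgccgaggcggc
These windows lay at chr16:30922630-30922659 (minus strand) for FBXL19, chr19:507458-507487 (plus) for TPGS1, chr5:173888071-173888100 (plus) for CPEB4, chr11:119101921-119101950 (minus) for C2CD2L, chr14:75176661-75176690 (minus) for TMED10, chr16:30558382-30558411 (plus) for ZNF764 and chr16:23149514-23149543 (minus) for USP31. All 7 copies were upstream of the annotated 5′ end, at offsets from −409 to −21 bp, and none of their ATGs was an annotated start codon. The copy ran in the direction of the gene at TPGS1, CPEB4, TMED10 and USP31 and against it at FBXL19, C2CD2L and ZNF764.

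The second set shows the other position in which the consensus was found. These are 5 of the 6 gene-sense copies with the highest YY1 scores whose ATG is itself an annotated start codon, a set chosen after the values were seen.
TPGS1: gccctcagcgAAGATGGCGgcagtggagaa
LRRC41: gcacctccccAAGATGGCGgcgcccgaggc
ZC3HC1: gcagcggaccAAGATGGCGgcgccctgtga
MRPL46: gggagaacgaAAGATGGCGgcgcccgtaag
GET3: agccagttccAAAATGGCGgcaggggtggc
They lay at chr19:507494-507523 (plus) for TPGS1, chr1:46303306-46303335 (minus) for LRRC41, chr7:130051350-130051379 (minus) for ZC3HC1, chr15:88467361-88467390 (minus) for MRPL46 and chr19:12737493-12737522 (plus) for GET3. In each, the capitals span the end of the 5′ untranslated region and the first codons. TPGS1, a subunit of the tubulin polyglutamylase complex, is in both sets, with 1 copy upstream at an offset of −26 bp and 1 at its start codon 10 bp inside the gene. Their nearest summits scored 20830.4 at TPGS1, 14415.1 at LRRC41, 8999.11 at ZC3HC1, 7691.34 at MRPL46 and 6783.23 at GET3.

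The score is column 5 of the list, a −log10 p or q from the authors' peak caller. Its lowest value was 2.00, its quartiles were 6.07, 15.0 and 45.2, and its highest value was 32192.9. The top 10% of summits (10658) scored at least 142 and the top 1% (1066) at least 1766. The summits came from 64684 peaks, of which 44079 held 1 summit, and the most in a peak was 48. Read depth is unknown from the list, and scores grow with it, so scores are compared here only within the YY1 list.

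YY1 summits were concentrated at the 5′ ends of protein-coding genes, and the more so the higher the score. Of all 106578 summits, 14291 were no more than 500 bp from the 5′ end of 1 of the 19970 protein-coding genes (13.4%, Wilson 95% interval 13.2 to 13.6), in windows that cover 0.640% of the reference bases. In the top score decile the share was 50.4% (49.4 to 51.3), and in the other deciles 9.30% (9.12 to 9.49). The odds ratio was 9.90 (9.48 to 10.3, two-sided Fisher's exact test, p below 1e-290). The share was 29.9% in the second decile and 17.9% in the third, and fell in each later decile to 2.19% in the last. In the top 1% it was 77.2%. A summit more than 10 kb from the nearest such end had a median score of 12.2 (n = 60362), against 69.3 for summits 1 to 500 bp upstream (n = 5769) and 105 for those 0 to 500 bp downstream (n = 8522).

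The annotation under the summit changed with the score in the same way. Only protein-coding and long noncoding genes were used here. A summit under several annotations was counted once, first as a 5′ untranslated exon, then as a coding, 3′ untranslated or noncoding exon, and last as an intron. In the whole list, 54.7% of summits lay in introns, 27.3% outside these genes, 7.41% in 5′ untranslated exons and 3.76% in coding exons. In the top 10%, 26.4% lay in 5′ untranslated exons and 11.4% in coding exons. In the top 1% these shares were 40.3% and 17.5%, and introns held 14.5%. The 3′ untranslated exons went the other way, from 1.61% of all summits to 0.469% of the top 1%.

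YY1 summits near a 5′ end lay more often inside the gene than before it. Of the 14291 summits within 500 bp, 8522 were downstream of the 5′ end on the gene strand (59.6%, 58.8 to 60.4, exact two-sided binomial test, p = 5.5e-118). The lean was not confined to this distance. The downstream share was 64.3% at 500 to 1000 bp, 67.5% at 1 to 10 kb and 60.04% over 10 kb away. The 50-bp bin with the most summits was 100 to 150 bp downstream (1573 summits), and the bin with the highest median score was 0 to 50 bp downstream (202), where 57.9% of summits were in the top decile. These 5′ ends are the outermost annotated starts of each gene record. With the starts of the MANE Select transcripts, 1 representative transcript per gene, the downstream share was 56.0%, and with only the highest summit of each peak it was 65.3%.

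The downstream share was higher in the top decile, at 3517 of 5370 summits (65.5%, 64.2 to 66.8), than in the other deciles, at 5005 of 8921 (56.1%, 55.1 to 57.1). The odds ratio was 1.49 (1.38 to 1.59, two-sided Fisher's exact test, p = 1.03e-28). With only the highest summit of each peak it was 1.11 (1.01 to 1.21, p = 0.0264 by the same exact test), and with MANE Select starts 1.24. The second decile had 62.6% downstream and the third 56.9%. From the fifth decile on the share was between 43.7% and 53.7%.

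**Figure D1:**
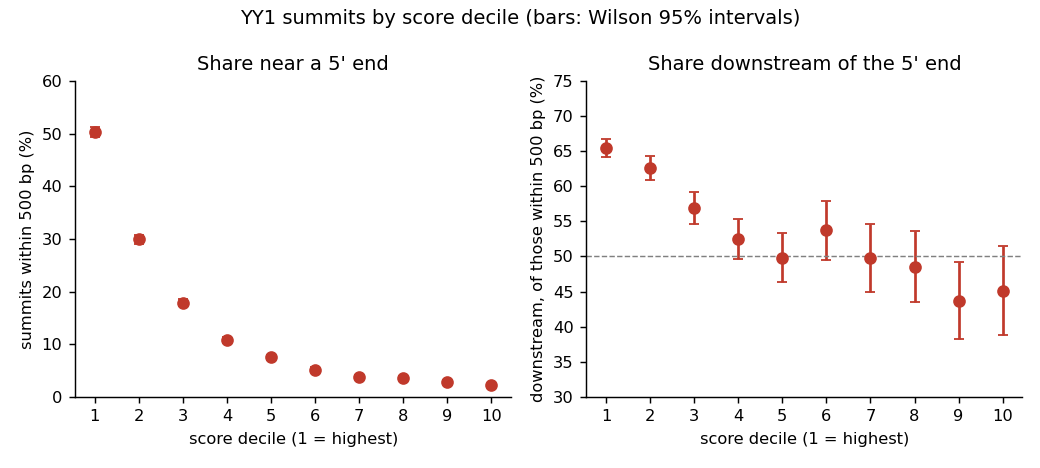
Share of YY1 summits within 500 bp of such an end of a protein-coding gene (left, percent) and share of those that lie downstream of it (right, percent; the axis starts at 30) by score decile, where 1 is the highest; points are shares and bars are Wilson 95% intervals. The left share falls from 50.4% in decile 1 to 2.19% in decile 10, and the right share is 65.5% in decile 1 and near or below the dashed line at 50% from decile 5 on.

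The very highest summits were on the other side. Of the 100 highest-scoring summits, 82 were at a protein-coding 5′ end (within 500 bp), and 29 of those 82 were downstream (35.4%, 25.9 to 46.2), with a median offset of −52.5 bp. In ranks 101 to 1066, 510 of 741 were downstream (68.8%, 65.4 to 72.1), with a median offset of 41 bp. Set against all other summits near 5′ ends, the top 100 gave an odds ratio of 0.368 for downstream (0.234 to 0.580, two-sided Fisher's exact test, p = 1.23e-05). This class was chosen after the named genes below were seen, so its p-value is a description.

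The summits of other lists moved with these ranks. A ZNF143 summit lay within 100 bp of 89 of the top 100 YY1 summits, of 64.2% in ranks 101 to 1066, of 39.7% in ranks 1067 to 10658 and of 3.88% of the rest. For SP1 the shares were 86.0%, 64.9%, 57.1% and 46.8%, and for NRF1 67.0%, 42.1%, 31.7% and 8.79%. The share near a 5′ end also fell over these classes, from 82.0% to 76.7%, 47.4% and 9.30%, so these shares mix rank with location. Near 5′ ends only, a ZNF143 summit lay within 100 bp of 561 of 823 top 1% summits. In the rest of the top 10% this held for 2087 of 4547, and in the other deciles for 1209 of 8921. Among top 1% summits near a 5′ end, 61.5% (57.4 to 65.4, n = 561) were downstream where a ZNF143 summit lay within 100 bp, and 74.0% (68.4 to 79.0, n = 262) where none did. In the rest of the top decile these shares were 55.9% (53.8 to 58.0, n = 2087) and 73.6% (71.8 to 75.3, n = 2460). In the other deciles they were 54.3% (51.4 to 57.1, n = 1209) and 56.4% (55.3 to 57.5, n = 7712). Without the summits within 100 bp of ZNF143, the odds ratio of the top decile against the rest was 2.16 instead of 1.49. The part of ZNF143 or of the antibody in these positions was not tested.

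At the level of genes, 11546 of 19970 protein-coding genes (57.8%) had a YY1 summit within 500 bp of the 5′ end, and 5696 (28.5%) had one in the top decile. The highest-scoring summit of each gene lay at a median of 60 bp downstream of the 5′ end (quartiles −94 and 174), and 61.7% were downstream. SP1, a zinc finger activator of GC-rich promoters, had a median of −38 bp and 36.8% downstream. NRF1, an activator of genes for mitochondrial and other housekeeping functions, had −29 bp and 40.3%, and ZNF143, a zinc finger activator of promoters, had −19 bp and 44.1%.

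**Figure D2:**
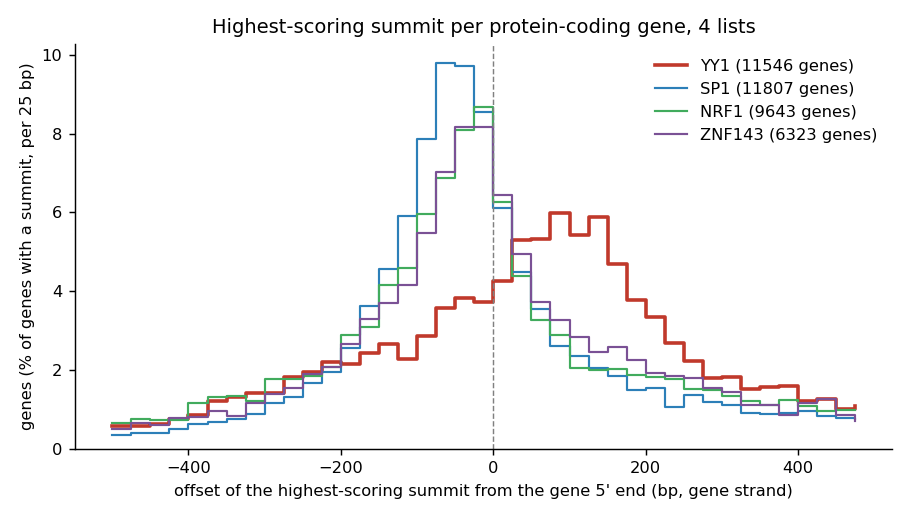
Offset of the highest-scoring summit from the gene 5′ end (bp on the gene strand, negative is upstream) for genes with a summit within 500 bp, as the percent of such genes per 25 bp, 1 line per list with the number of genes in brackets. The YY1 line has its broad peak downstream of the 5′ end (median 60 bp), and the SP1, NRF1 and ZNF143 lines peak upstream (medians −38, −29 and −19 bp).

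The same order held where both factors had a summit at the same gene. Among 10973 genes with a YY1 and an SP1 summit at different offsets, YY1 was the further downstream at 6897 (62.9%, exact two-sided sign test, Benjamini-Hochberg adjusted over the 3 lists, p = 6.26e-161). The median difference was 37 bp (quartiles −40 and 152). Against NRF1, YY1 was further downstream at 5571 of 9267 genes (60.1%, exact sign test, adjusted p = 8.43e-85), with a median difference of 55 bp. Against ZNF143 it was so at 3546 of 6129 genes (57.9%, exact sign test, adjusted p = 7.69e-35), with a median difference of 17 bp. The 2 summits lay within 50 bp of each other at 31.2% of genes for SP1, 18.0% for NRF1 and 40.1% for ZNF143. Neighbouring genes can share a summit, so genes are not independent and these p-values cover counting over genes only.

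The highest score at a protein-coding 5′ end was that of FBXL19, an F-box protein with a domain that binds CpG islands. Its summit scored 30324.4 at chr16:30922666, at an offset of −389 bp, in a noncoding exon. CDC45, a subunit of the helicase that unwinds DNA at replication forks, followed with 30140.8 at an offset of 83 bp, in a 5′ untranslated exon at chr22:19479540. CCDC124, a coiled-coil protein, had 27739.7 at −175 bp, and SCYL3, a kinase-like protein, 25716.6 at 179 bp. PRR14, a protein of the nuclear lamina, had 24888.3 at −59 bp, and CCDC174 23329.3 at −148 bp. Of these 6, CDC45 and SCYL3 had the summit inside the gene.

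SLX4IP, named for its binding to the nuclease scaffold SLX4, had 22234.5 at −136 bp. The centrosomal protein gene CDK5RAP2 had 21525.6 at −95 bp, and METTL3, the catalytic subunit of the enzyme that methylates adenosine in messenger RNA, 21260.9 at −97 bp. TPGS1 had 20830.4 at −63 bp, upstream of both copies of the consensus printed above. The summit of ENSG00000261459 (20590.3, −145 bp) is also 350 bp inside ZNF747, and the next gene, ENSG00000289491, had 18444 at −80 bp. TM9SF4, a transmembrane protein, had 17769.8 at −189 bp and HACD2, a dehydratase of fatty acid elongation, 17551.5 at −292 bp.

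CPEB4, which binds messenger RNA in the cytoplasm, had 17479.1 at −297 bp, and C2CD2L had 17342.2 at −229 bp. TMED10, a cargo receptor of the early secretory pathway, had 16939.3 at −93 bp. BROX had 16885.5 at 143 bp, and FEM1A, a substrate receptor of ubiquitin ligases, 15921.3 at −84 bp. The last 5 were SFSWAP (15823.4 at −34 bp), a splicing regulator, ZNF764 (15820.1 at −59 bp), DEDD (15336 at −100 bp), ERH (14965.6 at −169 bp) and USP31 (14475.4 at −102 bp).

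Of the 25 genes, 3 had their summit downstream (CDC45, SCYL3 and BROX), and the median offset was −100 bp. An SP1 summit lay within 100 bp at all 25, and an NRF1 and a ZNF143 summit at 22 each; TPGS1, HACD2 and DEDD had no ZNF143 summit that close. The consensus lay within 50 bp at 7 and within 100 bp at 11. Of the summits, 13 were outside protein-coding and long noncoding genes, 6 in noncoding exons, 5 in 5′ untranslated exons and 1 in an intron. The 31 bp around each of the 25 occurred once on the chromosomes of the reference. Another annotated 5′ end, protein-coding or long noncoding, lay within 500 bp of the summit at 9.

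**Figure D3:**
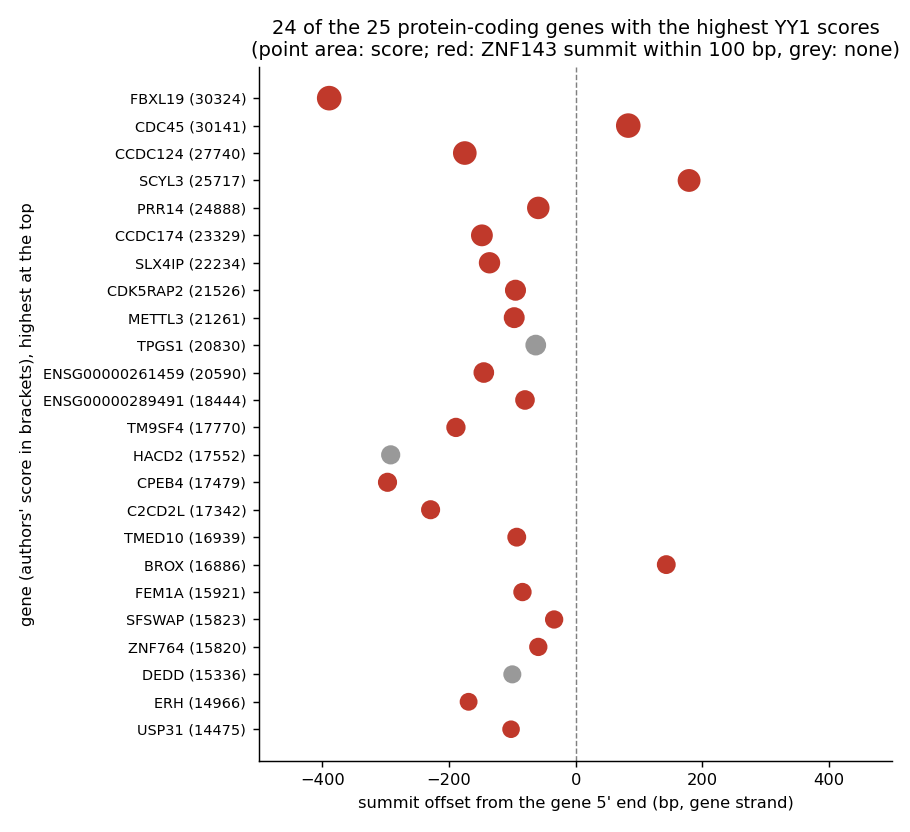
Offset of the summit from the gene 5′ end (bp on the gene strand) for 24 of the 25 protein-coding genes with the highest YY1 scores, in order of score from the top; point area and the number in brackets are the authors' score, red points have a ZNF143 summit within 100 bp and grey points have none. The points of 21 genes lie left of 0, and those of CDC45, SCYL3 and BROX lie right of it.

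The highest score in the list, 32192.9, lay outside these windows, at chr3:57756079, 629 bp inside SLMAP, with a ZNF143 summit within 100 bp. Of the 25 highest summits, 6 were further than 500 bp from a protein-coding 5′ end. One was 734 bp inside HCFC1 (16424.3), a coregulator. Another was at the 5′ end of the long noncoding gene ENSG00000239791 (26295.5, offset −4 bp). It was also 699 bp downstream of the 5′ end of the protein-coding gene ZNF688. The other 3 were over 10 kb from the 5′ end of any protein-coding or long noncoding gene record. They lay in an intron of ENSG00000288843 at chr20:41693521 (20345.9) and in an intron of PRPSAP1 at chr17:76354042 (18255.7). The third was inside NELFA at chr4:2009133 (17029.6), in a 5′ untranslated exon 32770 bp from the start of the gene record. Its distance to the starts of single transcripts was not measured. Next among such distant summits were those in introns of CHD2 (10441.8) and NR3C1, the glucocorticoid receptor (10307.6). The YY1 summit in CHD2 had no ZNF143 summit within 10 kb, its nearest being 13554 bp away.

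YY1 summits were also counted at the 5′ ends of long noncoding genes. Of 18756 such genes, 4272 had a summit within 500 bp (22.8%, 22.2 to 23.4), beside 57.8% of protein-coding genes. The median offset was −14 bp with 48.1% downstream, beside 60 bp and 61.7% for protein-coding genes. Of the 16091 that start over 1000 bp from any protein-coding 5′ end, 2235 had one (13.9%), with a median offset of 7 bp and 51.2% downstream. The difference from protein-coding genes was not tested.

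Copies of the consensus at 5′ ends were oriented with the gene more often than against it. Of 667 copies lying within 50 bp of a YY1 summit and within 500 bp of a 5′ end, 459 ran in gene sense (68.8%, 65.2 to 72.2, exact two-sided binomial test, p = 1.15e-22). Copies irrespective of a summit had the same lean, with 935 in sense and 477 antisense. Of the 935, 321 lay 0 to 49 bp inside the gene, against 113 antisense copies there. A YY1 summit lay within 100 bp of 297 of those 321 (92.5%, 89.1 to 94.9). Over all positions within 500 bp it did so for 743 of 935 sense copies (79.5%, 76.8 to 81.9) and 319 of 477 antisense copies (66.9%, 62.5 to 71.0). Further than 10 kb from a 5′ end, 1919 of 48279 copies (3.97%) had a summit within 100 bp. Sense copies upstream of the 5′ end were fewer (204), and 135 of them (66.2%) had a summit within 100 bp, with a median score of 2930. The median score was 1796 at copies 0 to 49 bp inside the gene.

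Summits did not lie centrally on the copies. At gene-sense copies with a summit within 100 bp, the nearest summit was a median of 28 bp 3′ of the A of the ATG (quartiles −3 and 53.5), and 73.2% of summits were on the 3′ side. At antisense copies the median was −7 bp on the copy's own strand, which is again the downstream side of the gene. At copies over 10 kb away it was 11 bp. In the first printed set, the summit was on the 5′ side of the copy at 6 genes (shifts of −20 to −37 bp) and 38 bp on the 3′ side at ZNF764. In the second set it was on the 5′ side at TPGS1 (−73 bp), LRRC41 (−61 bp) and GET3 (−12 bp) and on the 3′ side at ZC3HC1 (6 bp) and MRPL46 (18 bp).

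**Figure D4:**
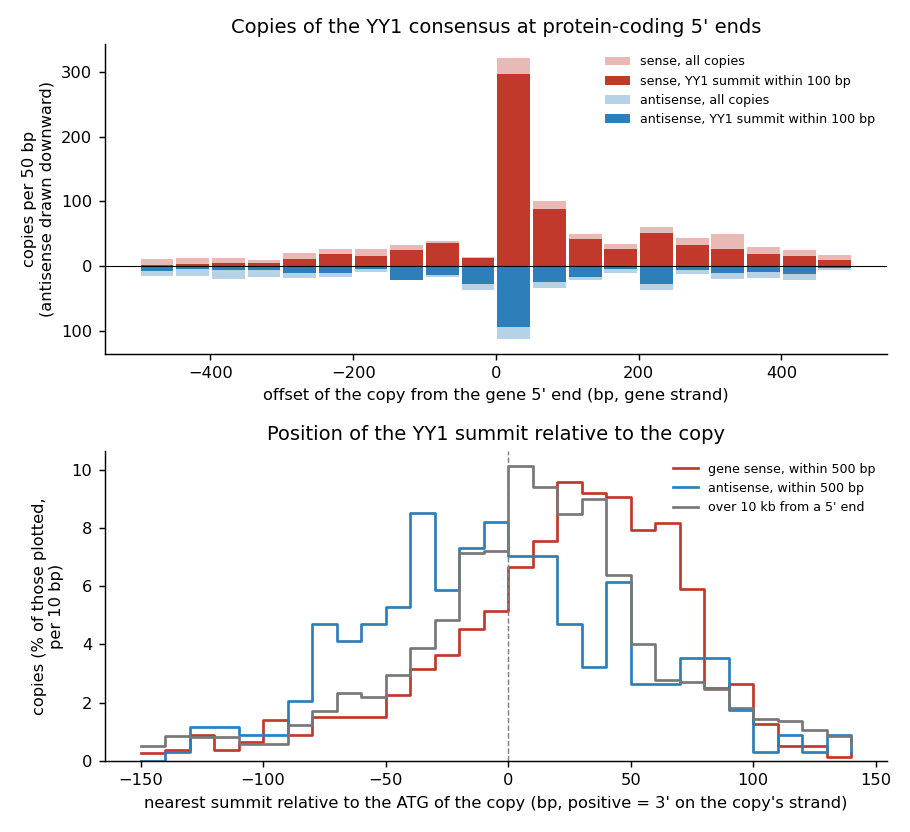
Top, copies of AANATGGCG per 50 bp by offset from the gene 5′ end (bp), gene-sense copies upward and antisense copies downward, with the dark part of each bar those with a YY1 summit within 100 bp. The tallest bar is the 0 to 49 bp bin, with 321 sense copies, 297 of them dark. Bottom, distance from the A of the copy's ATG to the nearest summit (bp, positive is 3′ on the strand of the copy) as percent of plotted copies per 10 bp, for 3 classes of copy with medians of 28, −7 and 11 bp.

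The ATG of the consensus was an annotated start codon in 388 of the 935 gene-sense copies. Of the copies with a summit within 50 bp, 201 of 459 were at a start codon (43.8%), and of those without, 187 of 476 (39.3%). The odds ratio of 1.20 (0.928 to 1.56) did not pass the test (two-sided Fisher's exact test, p = 0.164). With 100 bp as the distance it was 3.90 (two-sided Fisher's exact test, p = 1.19e-13), with 352 of 388 start-codon copies having a summit that close (90.7%, 87.4 to 93.2), against 391 of 547 others (71.5%, 67.6 to 75.1). At start-codon copies the summit lay a median of 36.5 bp 3′ of the ATG. In the bin 0 to 49 bp inside the gene, the shares with a summit within 100 bp were 95.5% (91.6 to 97.6, n = 198) at start codons and 87.8% (80.9 to 92.5, n = 123) elsewhere.

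The exact consensus lay near a small share of the summits of the list and near a larger share of its top 1%. A copy lay within 50 bp of 2.52% of all YY1 summits, of 9.04% of the top 10% and of 40.5% of the top 1% (37.6 to 43.5). Windows of the same size at all protein-coding 5′ ends held one in 2.37%. In the top 1% near 5′ ends the share was 40.3% for downstream summits (36.2 to 44.5, n = 539) and 41.2% for upstream summits (35.6 to 47.0, n = 284). In the top 10% near 5′ ends it was 12.6% downstream (11.6 to 13.8) and 9.55% upstream (8.3 to 10.98). Within 100 bp these top 10% shares were 20.9% (19.6 to 22.3) and 12.8% (11.3 to 14.4). In the top 1% they were 56.8% and 51.1% at that distance. The difference between the sides was not tested. A match is a description of the sequence, and a window without one says only that these letters are not in it.

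Gene groups of the basic cell machinery stood above the background shares of 57.8% and 28.5%, as counts beside all genes and with no test. Among cytosolic ribosomal protein genes, 70 of 79 had a YY1 summit and 65 a top-decile one, led by RPS27 (11563.4 at −119 bp) and RPL12 (9406.41 at −78 bp). Among mitochondrial ribosomal protein genes, 74 of 78 had one and 65 a top-decile one, with a median offset of 41 bp and 74.3% downstream. They were led by MRPS15 (8485.23 at 39 bp) and by the divergent pair MRPL46 and MRPS11, whose shared summit (7691.34) is 31 bp inside MRPL46. For subunits of complex I of the respiratory chain the counts were 35 and 33 of 39, led by NDUFA13 (8376.49 at 458 bp).

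Spliceosome core genes had 32 summits and 29 top-decile summits among 34 genes, led by SF3B3 (3442.73 at −251 bp), translation initiation factors 46 and 39 among 55, led by EIF2D (9182.63 at 38 bp), and proteasome subunits 32 and 28 among 40. PSMC5 led the last group (10667.4 at 44 bp). The 8 without a summit were the constitutive subunit genes PSMA6, PSMB5, PSMC2 and PSMD6, the immunoproteasome genes PSMB8 and PSMB9, and the tissue-specific PSMA8 and PSMB11. Replication-dependent histone genes had 51 and 46 among 69, and H3C6 led them (3455.38 at 188 bp).

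Genes of Polycomb and INO80 complexes, with which YY1 is known to work, had a summit at 29 of 32 and a top-decile one at 19. The INO80 subunit genes ACTR8 (7169.65 at −60 bp), INO80B (6331.58 at −97 bp) and INO80E (4056.5 at 325 bp) led, and EED, EZH2 and JARID2 of Polycomb complex PRC2 had none within 500 bp. HOX genes, classical Polycomb targets, had a summit at 32 of 39 and a top-decile one at 18, led by HOXA3 (1015.01 at −191 bp). Their summits were mostly upstream, with a median offset of −153 bp and 34.4% downstream.

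Among 515 C2H2 zinc finger genes named ZNF, 381 had a summit and 236 a top-decile one, led by ZNF747, ZNF764 and ZNF350 (13875.8 at −75 bp). Clustered protocadherins, surface proteins of neurons, had 11 of 53 and 2 in the top decile. Of 416 olfactory receptor genes, expressed in the nasal epithelium, OR1F1 alone had a summit (132.676 at −42 bp), outside the top decile.

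**Figure D5:**
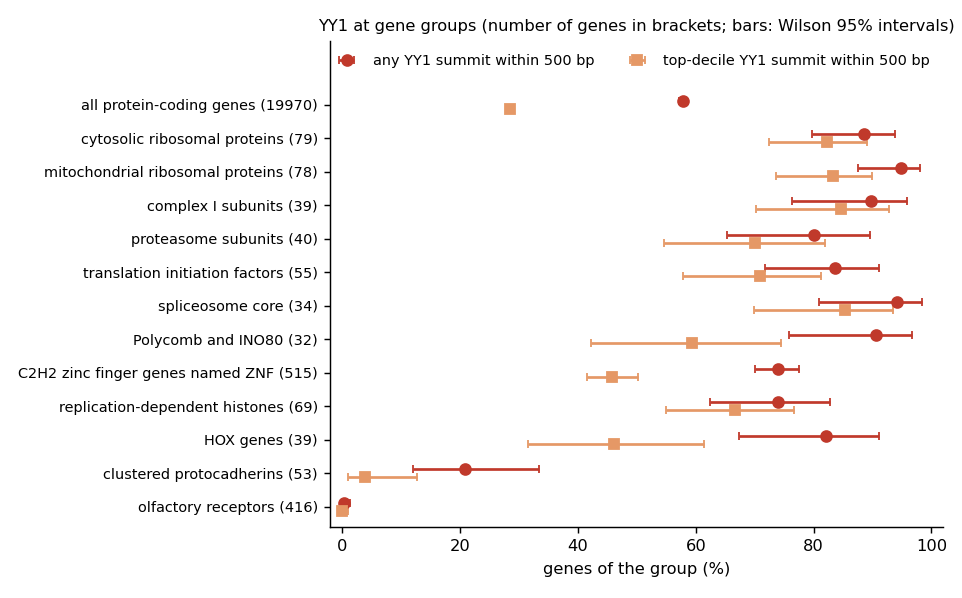
Percent of genes with any YY1 summit (circles) and with a top-decile YY1 summit (squares) within 500 bp of the 5′ end, for all protein-coding genes and the gene groups, with the number of genes in brackets and Wilson 95% intervals as bars. All but the last pair of groups lie right of the values for all genes (57.8% and 28.5%), and protocadherins and olfactory receptors lie left of them.

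YY1 itself had a summit of 320.622 upstream of its own 5′ end at an offset of −226 bp, in the top 4.62% of the list. Within 10 kb of that end there were 14 summits, the highest scoring 2699.48 at 1663 bp inside the gene. YY2, a retrogene copy of YY1, and ZFP42, a YY1 relative expressed in embryonic stem cells, had no summit within 10 kb.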

How the data were processed

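ChIP-seq positions of YY1, SP1, NRF1 and ZNF143 were used as lists of summits, 1 per antibody. Judged from layout and values, column 5 of the deposited lists is a −log10 p or q from the authors' peak caller, and the sources used here do not say whether it was p or q. Per the submitters' processing notes, cutadapt, Bowtie2, SAMtools 1.16.1, MACS3 and bedtools were used with hg38, with parameters not given in the sources used here. The YY1 list was matched to its samples by the antibody in its name, and which YY1 samples were pooled into it is not stated. It skips 11467 peak numbers, so peaks were removed after calling, and 80 of its 106658 lines lay on chromosomes not used. Read depth is unknown, and a list's length grows with it.

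Positions were compared with hg38 and GENCODE 44. The 5′ end was that of the gene record, offset 0 counted as downstream, and a summit or copy was near a 5′ end within 500 bp of the nearest one. Shares carry Wilson 95% intervals, and tests were exact binomial, sign or Fisher's tests at a threshold of 0.05 (scipy 1.17.1), with code checked on simulated positions. Positions and genes are not replicates, so p-values and intervals cover counting only.

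Named genes were the 25 protein-coding genes with the highest score and the 3 highest of each gene group, with YY1, YY2 and ZFP42. Added to them were the 5 highest long noncoding genes whose summit was over 500 bp from a protein-coding 5′ end. The 5 highest summits over 10 kb from any protein-coding or long noncoding 5′ end were also named. Gene groups were formed by gene name. A few of the named genes are not reported here. The members and lists were chosen with earlier results of these data known. Alternatives changed the windows, annotation, score class, summits per peak, bidirectional genes and consensus. Classes of rank, the split by ZNF143 and the start-codon sequences were added after seeing the data.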

Additional observations from a re-analysis of the deposited data

How the results depend on the processing

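Of 67 alternatives run, 58 kept the direction and side of the threshold of the result (or its value within the interval or 1.5 times the count). The share of summits near a 5′ end moved with its definition, to 9.26% with a 250-bp window, 18.9% with 1000 bp, 15.1% with MANE Select starts and 23.3% in the top 50% by score. The odds ratio of start-codon copies turned to 0.972 with the 250-bp window and passed the test at 1.99 with the 1000-bp window, 3.90 with summits within 100 bp and 2.27 with ATGGCG as the consensus. The odds ratio of the downstream share by score, 1.49 for the top decile, was 0.368 with the top 100 summits as the class, a choice made after seeing the data. The cause of these shifts was not tested. No paired analysis was possible because the lists give no value per sample, and leaving out a replicate could not be done for the same reason. The unknown depth limits what an absent summit says. For a gene, no summit means none called in this list within 500 bp of the 5′ end of its gene record. A summit can lie further away: 11546 protein-coding genes had one within 500 bp and 12432 within 1000 bp.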

Other observations

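Several of the highest YY1 scores lay close together on the short arm of chromosome 16, a stretch chosen after the named genes were seen. The 500 kb from 30500001 to 31000000 of chromosome 16 (hg38) held 8 of the 100 highest YY1 summits and 10 of the top 1%, among 112 summits with a median score of 19.6. The 100 highest summits fell into 81 bins of this length across the chromosomes, and the next fullest bins held 5 and 4 of them. For the top 1%, the next fullest bins held 9 and 7, close to the 10 of this stretch. Genes of the stretch include FBXL19, PRR14, ZNF764 and ZNF747, with the long noncoding gene ENSG00000239791. Of its 23 protein-coding genes, 18 had a YY1 summit within 500 bp of the 5′ end and 12 a top-decile one, beside 57.8% and 28.5% of all protein-coding genes. The same stretch held 3 of the 100 highest SP1 summits, 2 of the NRF1 and 3 of the ZNF143 ones. The number of copies of this stretch in the clone was not measured here.

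Summits per megabase were most frequent on chromosome 19 (69.8) and least frequent on chromosome 2 (22.5). Chromosome 19 also had the most protein-coding genes per megabase (25.2), beside 5.15 on chromosome 2. Chromosome 2 did not have the fewest, which were on chromosome 13 (2.82), with 28.1 summits per megabase. Among long noncoding genes whose summit was over 500 bp from a protein-coding 5′ end, ENSG00000239791 scored highest. After it came ENSG00000291326 (15820.9 at −63 bp), ENSG00000288983 (9825.26 at −226 bp), GUSBP11 (8535.41 at −26 bp) and LINC02960 (8059.69 at −77 bp). All 5 of these summits were upstream of the 5′ end of the long noncoding gene.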
